A study of Glycine max with 18 samples.

Results

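The comparison set the endosperm of the soybean seed against the endothelium, the layer that faces it across the wall of the embryo sac. It rests on 4 arrays of the 18 in the study, 2 of endosperm and 2 of endothelium, taken by their labels. All seeds were of Glycine max cultivar Asgrow A3237 and 2.5 to 3.0 mm long, with embryos at the cotyledon stage, from plants kept at 22 °C under a 16 h day and an 8 h night. No genotype or treatment separated the groups, so tissue was the difference between them by design. Both tissues were cut by laser from 8 µm paraffin sections of seeds fixed in ethanol and acetic acid, and RNA amplified from 2 ng was hybridized to the Affymetrix Soybean Genome Array. The labels give no number of seeds or plants behind an array, and both tissues can come from the same seeds. A p-value here therefore measures spread between replicate arrays alone, part of which may be technical. That spread was estimated over all 18 arrays, not from these 4 alone. In tissue captures, fewer cells of a type and less RNA per cell cannot be told apart.

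The endosperm is a product of fertilization. In soybean it fills the embryo sac early, feeds the embryo and is largely consumed before the seed is mature. The endothelium is maternal, the innermost layer of the integuments, and sugars, amino acids and water pass from the mother plant to the embryo and endosperm through the seed coat that it lines. In many species the endothelium makes proanthocyanidins, the flavonoid polymers of the seed coat, and the hormones gibberellin, auxin, jasmonate and ethylene are made or perceived in seed tissues on both sides of the boundary.

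Of the 37593 probe sets for soybean, 56.7% to 61.4% reached a signal of 100 on each of the 4 arrays. Signals under 50 were set to 50, and the 31961 probe sets that reached 100 on 2 or more of the 18 arrays were tested. Across these probe sets the log2 signals of the endosperm arrays correlated at r = 0.966, those of the endothelium arrays at r = 0.958, and arrays of different tissues at 0.831 to 0.834. These correlations run across genes, which are not independent replicates, and are given as a description. Background was taken as the signal under which 95% of the other-organism probe sets lay, which was 125.1 and 165 on the endosperm arrays and 125.1 and 136 on the endothelium arrays.

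Of the 31961 tested probe sets, 7606 passed an adjusted p of 0.05 (limma, Benjamini-Hochberg), or 23.8%. The calls were split evenly, with 3811 probe sets (11.9%) higher in endosperm and 3795 (11.9%) higher in endothelium, and the median log2 difference over all tested probe sets was 0.03. Large differences were not split evenly. At least 16-fold differences were called for 239 probe sets toward endosperm and for 450 toward endothelium, and at least 4-fold differences for 1201 and 1862. The numbers of 16-fold differences depend on the floor. They were 193 and 374 with a floor of 100, and 441 and 740 with no floor. Between the 2 arrays of a tissue the median absolute log2 difference was 0.33 in endosperm and 0.37 in endothelium, against 0.58 between the means of the tissues. The signals of the 2 arrays lay within 2-fold of each other for 87.4% of probe sets in endosperm and 85% in endothelium, and the means of the tissues for 71%. Precision is limited throughout by the number of arrays, and the arrays of the tissues did not overlap for 56.3% of probe sets.

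**Figure D1:**
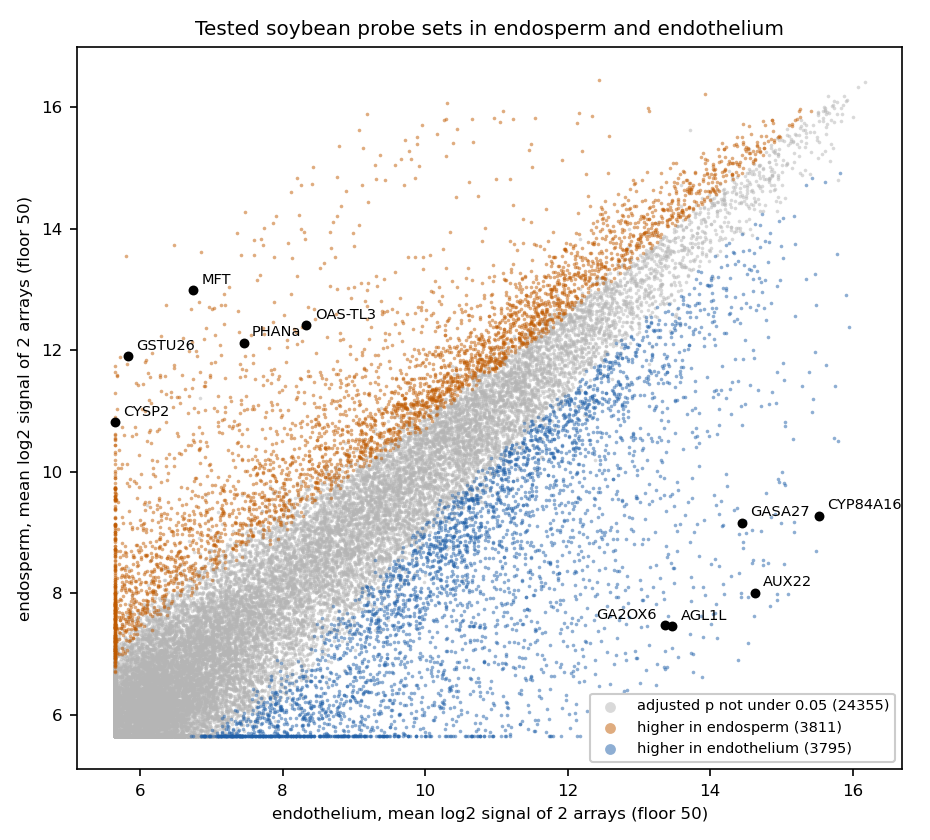
Mean log2 signal of the 2 endosperm arrays (vertical axis) against that of the 2 endothelium arrays (horizontal axis) for each of the 31961 tested soybean probe sets, with the 3811 called higher in endosperm in orange, the 3795 called higher in endothelium in blue and the others in grey. Named black points are genes among the largest differences, and the spread of blue points far below the diagonal shows the 450 probe sets at least 16-fold higher in endothelium.

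A gene name could be given to few of these probe sets, since the probe table listed exactly 1 gene symbol for 8677 soybean probe sets. Of the 5703 genes with a tested probe set, 1043 carry a name other than a locus number, and the results that follow are about these named genes, each read from its probe set of highest mean signal. Of all 5703 genes 35.2% passed (15.9% higher and 19.3% lower in endosperm), and the arrays did not overlap for 67.5%. Among the named genes 417 passed (40%), 172 higher in endosperm (16.5%) and 245 higher in endothelium (23.5%), with a median log2 difference of -0.01. The arrays of the tissues did not overlap for 66.3% of named genes, so an absence of overlap alone is common here. All 417 named genes that passed were without overlap. Where it is mentioned for a gene that passed, it describes the signals and adds no further evidence. Folds compare the geometric means of the tissues, and the log2 difference is endosperm minus endothelium, so that values above 0 are higher in endosperm. Where both arrays of the lower tissue were under 50 the fold is a lower bound and carries "at least". Where only 1 of them was under 50, as for SARK, ALDH2B4, PM12 and P89, the fold also depends on the floor. It is then a lower bound too, but is given without those words. The same holds for a fold with an array left out where the array kept in the lower tissue was under 50, as for RCAALPHA, LOX7 and PM40. The mean of the lower tissue was under the other-organism level for 11 of the 15 leading endosperm genes and 8 of the 15 leading endothelium genes, and the size of those folds depends on that level.

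Whether the captures carry the transcripts their labels name could be checked in part. None of the 11 endosperm markers looked for, among them SWEET15, AGL62 and IKU2, was found by name among probe sets with exactly 1 gene symbol. Other probe sets were not searched, so the endosperm label has no marker check. Of 5 endothelium markers, genes of proanthocyanidin and anthocyanin synthesis, DFR1 and ANS2 passed and were higher in endothelium. DFR1, a dihydroflavonol reductase, read 116 and 196 in endosperm and 718 and 466 in endothelium, a 3.84-fold difference (log2 difference -1.94 ± 0.44 SE, adjusted p = 0.00269). It missed the threshold without endosperm array 1 (adjusted p = 0.0538). ANS2, an anthocyanidin synthase, was 2.20-fold higher in endothelium (log2 difference -1.14 ± 0.38 SE, adjusted p = 0.0351) and missed the threshold without endosperm array 1 (adjusted p = 0.287) and without either endothelium array (0.0731 and 0.179). ANR1, the anthocyanidin reductase at the entry to proanthocyanidins, read 329 and 522 in endosperm and 134 and 503 in endothelium, and the tissues overlapped. DFR2 and LAR1 had both endothelium arrays under 50. The summed signal of the 5 markers was 811 and 1195 in endosperm and 1434 and 1641 in endothelium. These markers do not set the 2 tissues apart as a group, and the tissues are called here by their labels.

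Markers of neighbouring tissues, which came from earlier results of these data, differed in part between the 2 tissues. All 6 seed coat markers, SCB1, AGL1L, PRP3, PRP1, MADS28 and SEP1, were higher in endothelium. Their signals summed to 4395 and 4204 in endosperm and 67460.0 and 78610.0 in endothelium. Most of each sum was SCB1, at 3556 and 3323 in endosperm and 43584 and 59143 in endothelium. Of 6 embryo proper markers only PHANa passed, higher in endosperm, and GmYABBY11 and IF7GT were under 50 on all 4 arrays. The embryo proper list summed to 6297 and 5319 in endosperm and 649 and 701 in endothelium. PHANa alone gave 4922 and 4033 of the endosperm sums. Of 4 suspensor markers PM9 and PM32 were higher in endosperm, and the 4 summed to 840.3 and 827 in endosperm against 272 and 264 in endothelium. MP2 and PM25 did not pass. Their log2 differences were 1.20 ± 0.49 SE (adjusted p = 0.0882) and -0.95 ± 0.45 SE (adjusted p = 0.149). PM9 missed the threshold without endosperm array 1 (adjusted p = 0.14) and without endothelium array 2 (0.103). Whether RNA of neighbouring tissue has a part in any result was not tested.

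The gene with the largest rise toward endosperm was MFT, of the family of phosphatidylethanolamine-binding proteins that also holds the florigen FT, and in Arabidopsis a regulator of seed germination. Its signal was 7344 and 8985 in endosperm and 115 and 99.8 in endothelium. Both endosperm arrays lay far above the endothelium arrays, which were under the other-organism level, and the difference was 75.8-fold (log2 difference 6.24 ± 0.60 SE, adjusted p = 2.84e-07). PHANa, related to the MYB factor PHANTASTICA of lateral organs, gave 4922 and 4033 on the endosperm arrays against 148 and 208 on the endothelium arrays, a 25.4-fold difference (log2 difference 4.67 ± 0.37 SE, adjusted p = 2.48e-08). WRKY11 (symbol LOC100170685), a WRKY transcription factor, read 2704 and 3362 in endosperm and 118 and 134 in endothelium. The arrays of each tissue were close to each other, and the difference was 24-fold (log2 difference 4.58 ± 0.32 SE, adjusted p = 5.73e-09).

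GSTU26 (symbol LOC547578), a tau-class glutathione transferase, read 3961 and 3714 in endosperm and 43.5 and 64.9 in endothelium, with endothelium at background, and was 67.3-fold higher in endosperm (log2 difference 6.07 ± 0.50 SE, adjusted p = 5.13e-08). CYSP2, a cysteine protease, gave 1802 and 1787 on the endosperm arrays against 7.6 and 25 on the endothelium arrays. Both endothelium arrays were under 50, so the difference was at least 35.9-fold (log2 difference 5.17 ± 0.50 SE, adjusted p = 3.53e-07). ALDH2B4, a mitochondrial aldehyde dehydrogenase, was 25.4-fold higher in endosperm (log2 difference 4.67 ± 0.76 SE, adjusted p = 0.000135), with signals of 1657 and 1475 in endosperm and 75.6 and 10.3 in endothelium. PGIP, an inhibitor of fungal polygalacturonases, was 21.6-fold higher (log2 difference 4.43 ± 0.52 SE, adjusted p = 3.69e-06), and CDPK-BETA, a calcium-dependent protein kinase, 20.1-fold higher (log2 difference 4.33 ± 0.50 SE, adjusted p = 2.75e-06). Neither gene overlapped between tissues, and both were under background in endothelium. SC-04 and P89, to which no role is given here, were 70.0-fold (log2 difference 6.13 ± 0.57 SE, adjusted p = 2.08e-07) and 55.3-fold higher (log2 difference 5.79 ± 0.43 SE, adjusted p = 1.29e-08). ERF5, an ethylene response factor, read 2322 and 2767 in endosperm and 42.9 and 150.3 in endothelium and was 29.2-fold higher (log2 difference 4.87 ± 0.52 SE, adjusted p = 1.14e-06). Its low side was uneven, and the difference was 16.9-fold without endothelium array 1 and 50.7-fold without endothelium array 2.

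On the endothelium side the gene with the largest difference was SARK, a receptor-like kinase first described in senescing soybean leaves. Its signal was 3.7 and 81.0 in endosperm and 7077 and 7130.4 in endothelium, the endosperm arrays being at background, and it was 112-fold higher in endothelium (log2 difference -6.80 ± 0.47 SE, adjusted p = 5.6e-09). GER2, a germin-like protein of the cupin family, gave 116 and 144 on the endosperm arrays against 12753 and 14393 on the endothelium arrays, a 105-fold difference (log2 difference -6.71 ± 0.68 SE, adjusted p = 6.22e-07). AUX22, an Aux/IAA protein of the auxin response, read 219 and 303 in endosperm and 24794 and 25798 in endothelium. The arrays of each tissue agreed closely, endosperm lay above background, and the difference was 98.2-fold (log2 difference -6.62 ± 0.29 SE, adjusted p = 2.43e-11). PSK3, the precursor of a phytosulfokine peptide hormone, was 86.6-fold higher (log2 difference -6.44 ± 0.29 SE, adjusted p = 3.34e-11), from signals of 203 and 322 in endosperm and 22065 and 22175 in endothelium.

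Other genes of this group included the cytochrome P450 CYP84A16 (symbol LOC100793538), of the family that holds the ferulate hydroxylase of lignin synthesis, with 507 and 755 on the endosperm arrays against 44162 and 50341 on the endothelium arrays. It was 76.2-fold higher in endothelium (log2 difference -6.25 ± 0.53 SE, adjusted p = 6.82e-08), and its endosperm level was above background. GA2OX6, AGL1L, SEP1, RCA14 and GASA27 belong to families described below. SRC1, named for its regulation by cold in soybean, was 40.2-fold higher (log2 difference -5.33 ± 0.24 SE, adjusted p = 3.34e-11). SGR2, with no role given here, was 41.0-fold higher (log2 difference -5.36 ± 0.43 SE, adjusted p = 3.45e-08), and 27.2-fold and 62.0-fold higher without endosperm array 1 and array 2. ACS1 read 10.4 and 72.8 in endosperm and 4370.0 and 2139.9 in endothelium and was 50.7-fold higher (log2 difference -5.66 ± 1.09 SE, adjusted p = 0.000711). GSTIR and the gene LOC732565, one of 2 that share the name SGT3, had both endosperm arrays under 50 and were at least 45.2-fold (log2 difference -5.50 ± 0.47 SE, adjusted p = 7.04e-08) and at least 92.5-fold higher (log2 difference -6.53 ± 0.50 SE, adjusted p = 1.71e-08). Some probe set IDs carry a suffix that marks probes shared with similar transcripts, and such probe sets stood behind 2 of the 15 leading endosperm genes, ERF5 and OAS-TL3, and 7 of the 15 leading endothelium genes, SARK, GER2, SGT3, PSK3, GSTIR, SRC1 and RCA14.

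**Figure D2:**
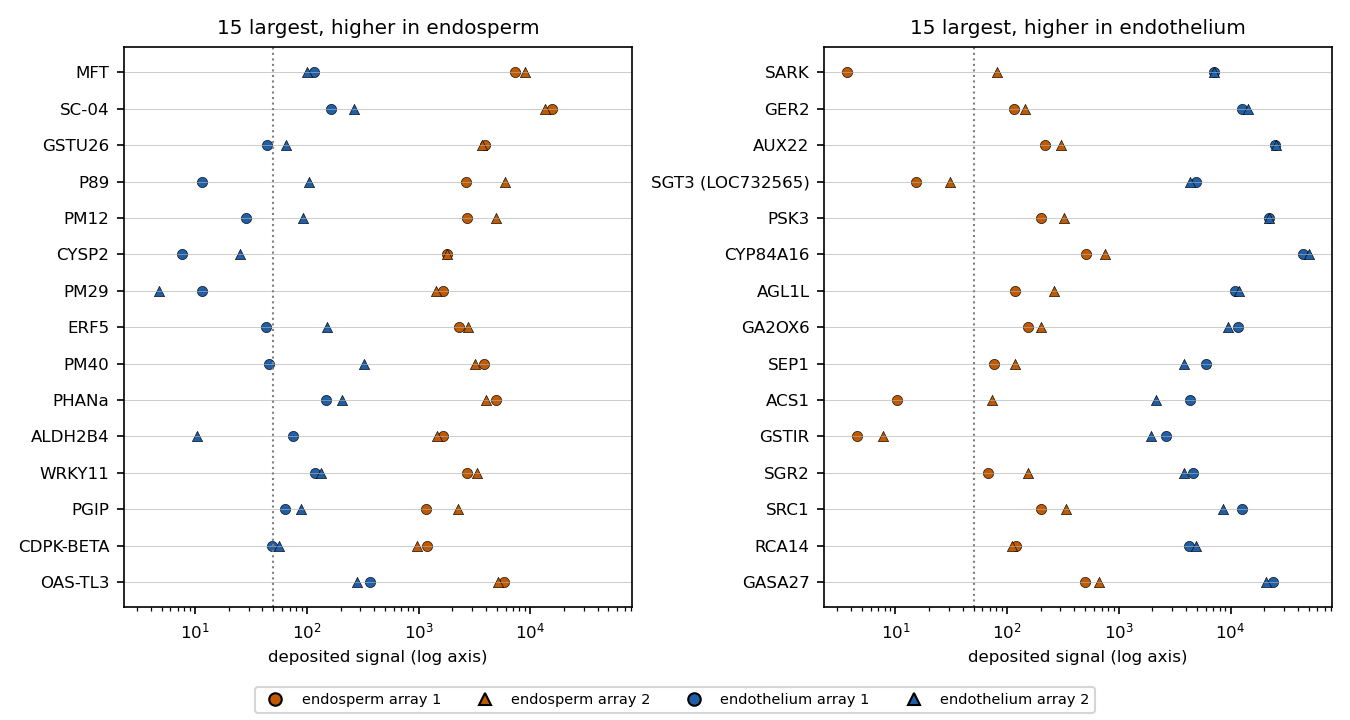
Deposited signal on each of the 4 arrays (log axis, arbitrary units) for the 15 named genes with the largest difference toward endosperm (left) and toward endothelium (right). Orange marks endosperm and blue endothelium, circles array 1 and triangles array 2, and the dotted line is the floor of 50. In every gene shown the arrays of one tissue lie above both arrays of the other, by the rule that chose them, and the mean of the low side is under the other-organism level in 11 of the 15 genes on the left and 8 of the 15 on the right.

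Probe sets without a named gene held larger differences still. Gma.12669.1.A1_at gave 48.0 and 69.0 on the endosperm arrays against 19338 and 20311 on the endothelium arrays and was 337-fold higher in endothelium (log2 difference -8.40 ± 0.36 SE, adjusted p = 1.78e-11). Gma.8185.1.A1_at, at 3.3 and 4.5 in endosperm and 15089.8 and 11129 in endothelium, was at least 259-fold higher (log2 difference -8.02 ± 0.27 SE, adjusted p = 2.06e-12). Toward endosperm, GmaAffx.13164.1.S1_at gave 11925 and 11903 on the endosperm arrays against 19.9 and 62.6 on the endothelium arrays, a 213-fold difference (log2 difference 7.73 ± 0.72 SE, adjusted p = 2.13e-07). GmaAffx.79846.1.S1_at was strong in endosperm and above background in both tissues, with 57468 and 64019.5 in endosperm and 458 and 741 in endothelium, a 104-fold difference (log2 difference 6.70 ± 0.81 SE, adjusted p = 4.88e-06). The other 6 of the 10 largest, 3 in each direction, differed by 108-fold to 187-fold. Of the 10, 1 has a gene symbol, LOC100305977, which was 152-fold higher in endosperm and 85.6-fold to 270.4-fold higher when 1 array was left out.

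Named genes were grouped into lists by pathway or family, and each list is described by the number of its tested members that passed in each direction. These numbers are to be read against the 16.5% higher and 23.5% lower in endosperm, and the median of -0.01, over all named genes. No test of a list as a whole was made. Calls use the variance shared over all 18 arrays, and with that of the 4 arrays alone 31 of the 134 called genes among those chosen by the naming rule lost their call. A member counts as passed at an adjusted p under 0.05 over all 31961 probe sets.

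**Figure D3:**
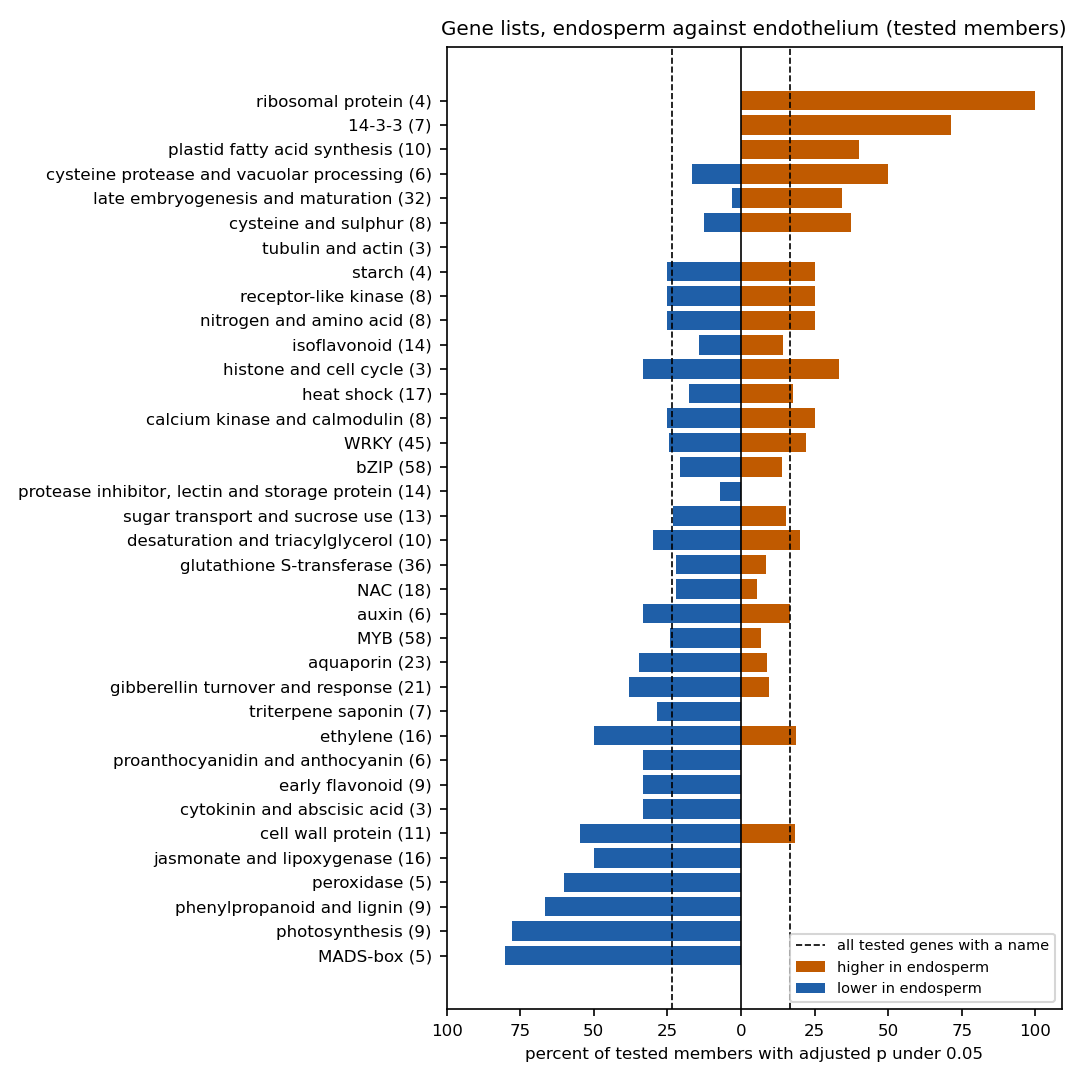
Percent of the tested members of each gene list (number tested in parentheses) that passed at an adjusted p under 0.05, higher in endosperm to the right in orange and lower in endosperm to the left in blue. Dashed lines mark the 16.5% and 23.5% over all named genes, and the lists are ordered by the difference between the bars, from the ribosomal proteins (4 of 4 higher) to the MADS-box factors (4 of 5 lower).

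Genes of phenylpropanoid and lignin synthesis were in most cases higher in endothelium. The general pathway turns phenylalanine into activated cinnamic acids for lignin, flavonoids and other phenolics. Of 9 tested, 6 were higher in endothelium, none higher in endosperm, and the median log2 difference was -3.49. C4H, the cinnamate hydroxylase, read 263 and 153 in endosperm and 5184 and 5663 in endothelium, without overlap, and was 27.1-fold higher in endothelium (log2 difference -4.76 ± 0.24 SE, adjusted p = 1.11e-10). Coumarate-CoA ligase, the next step, is represented by several genes. 4CL1 gave 93.0 and 145 on the endosperm arrays against 3349 and 4034 on the endothelium arrays and was 31.7-fold higher (log2 difference -4.99 ± 0.43 SE, adjusted p = 8.03e-08). 4CL3 was 27.1-fold higher (log2 difference -4.76 ± 0.45 SE, adjusted p = 2.58e-07) and 4CL2 15.4-fold higher (log2 difference -3.94 ± 0.50 SE, adjusted p = 8.98e-06). The 4CL2 endosperm arrays differed, and its fold was 27.6 and 8.59 without endosperm array 1 and array 2. The genes 4CL4 and 4CL did not pass and leaned in opposite directions. Their log2 differences were -0.82 ± 0.43 SE (adjusted p = 0.203) and 0.81 ± 0.43 SE (adjusted p = 0.204). PAL2.1, a phenylalanine ammonia-lyase at the entry to the pathway, did not pass, at 15886 and 14001 in endosperm and 20237 and 12012 in endothelium. The tissues overlapped there, with a log2 difference of -0.06 ± 0.28 SE (adjusted p = 0.938). CCR, among the 6 that passed, was 3.22-fold higher in endothelium (log2 difference -1.69 ± 0.48 SE, adjusted p = 0.0146). It missed the threshold without the signal filter (adjusted p = 0.06) and when any of the 4 arrays was left out, at 3.02-fold to 3.44-fold.

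Flavonoid genes beyond that point were less uniform. Of 9 early flavonoid genes 3 passed, all higher in endothelium, with a median of -0.82. They were the chalcone isomerases CHI1A, 12.7-fold higher (log2 difference -3.66 ± 0.38 SE, adjusted p = 7.17e-07), and CHI4A, 7.12-fold higher (log2 difference -2.83 ± 0.32 SE, adjusted p = 2.42e-06), and F3H, the flavanone hydroxylase, 3.53-fold higher (log2 difference -1.82 ± 0.30 SE, adjusted p = 0.000182). CHI1A read 154 and 289 in endosperm and 2534 and 2829 in endothelium, and F3H 1531 and 2569 in endosperm and 6993 and 6988 in endothelium, so that F3H was well above background in both tissues. All 3 were read from probe sets with a suffix, and without such probe sets 1 member passed. The chalcone synthases CHS1 and CHS8 overlapped between tissues and did not pass, but another of the 5 probe sets of CHS1 was called higher in endosperm. In the branch to anthocyanins and proanthocyanidins 2 of 6 passed, DFR1 and ANS2, described above, and neither passed without endosperm array 1 or with the variance of the 4 arrays alone.

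The isoflavonoid branch, typical of legumes, held members on both sides, with 2 of 14 higher in endosperm and 2 higher in endothelium (median 0.21), shares no larger than those over all named genes. IFR2, an isoflavone reductase, read 2023 and 1472 in endosperm and 34443 and 33255 in endothelium. Its arrays agreed closely within each tissue, and it was 19.6-fold higher in endothelium (log2 difference -4.29 ± 0.21 SE, adjusted p = 8.6e-11). IFR1 was 6.80-fold higher in endothelium (log2 difference -2.77 ± 0.57 SE, adjusted p = 0.00132), and 4.48-fold and 10.3-fold without endosperm array 1 and array 2. With the mean of its probe sets IFR1 was 1.81-fold higher (adjusted p = 0.0591). Toward endosperm stood IF7MaT, which adds malonyl groups to isoflavone glucosides, at 2234 and 3403 in endosperm and 108 and 414 in endothelium. It was 13-fold higher (log2 difference 3.70 ± 0.47 SE, adjusted p = 9.41e-06), and 6.66-fold and 25.5-fold without endothelium array 1 and array 2. PTS1, a pterocarpan synthase, was 3.40-fold higher in endosperm (log2 difference 1.77 ± 0.60 SE, adjusted p = 0.0402) but missed the threshold without endothelium array 1 (adjusted p = 0.378) and without either endosperm array (0.103 and 0.181). With the variance taken from the 4 arrays alone, 1 member of the list passed, IFR2.

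Of 16 lipoxygenases and genes of jasmonate synthesis and response, 8 were higher in endothelium, none was called higher in endosperm, and the median was -1.16. AOC3, an allene oxide cyclase, read 119 and 132 in endosperm and 4275 and 5305 in endothelium. The endosperm arrays were at background, and the difference was 38-fold (log2 difference -5.25 ± 0.23 SE, adjusted p = 1.81e-11). AOC4, of the same family, gave 102 and 212 on the endosperm arrays against 2894 and 3052 on the endothelium arrays and was 20.2-fold higher in endothelium (log2 difference -4.34 ± 0.30 SE, adjusted p = 6.26e-09). The lipoxygenases LOX1.4 (symbol LOC547835) and LOX7 were 14.8-fold (log2 difference -3.88 ± 0.32 SE, adjusted p = 5.38e-08) and 27.7-fold higher (log2 difference -4.79 ± 0.47 SE, adjusted p = 3.65e-07). LOX7 was 43.9-fold and 17.4-fold higher without endosperm array 1 and array 2. With suffix probe sets left out, 5 members passed.

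Of the gibberellin genes, 8 of 21 were higher in endothelium and 2 in endosperm, with a median of -0.47. GA2OX6, an oxidase of the kind that inactivates gibberellins, read 155 and 202 in endosperm and 11752 and 9567 in endothelium, and was 59.9-fold higher in endothelium (log2 difference -5.90 ± 0.43 SE, adjusted p = 9.4e-09). Of the GASA family of small cysteine-rich peptides, many of which respond to gibberellin, GASA27 gave 494 and 661 on the endosperm arrays against 23805 and 20983 on the endothelium arrays and was 39.1-fold higher (log2 difference -5.29 ± 0.22 SE, adjusted p = 1.03e-11). GASA9 read 621 and 694 in endosperm and 19773 and 21780.4 in endothelium, a 31.6-fold difference (log2 difference -4.98 ± 0.21 SE, adjusted p = 1.72e-11). In both, endosperm lay above background and the arrays of each tissue were close. GASA14 was 16.6-fold higher in endothelium (log2 difference -4.05 ± 0.28 SE, adjusted p = 5.42e-09). The opposite direction was taken by GAI1, a DELLA repressor of gibberellin response, at 5767 and 7138 in endosperm and 902 and 505 in endothelium. It was 9.51-fold higher in endosperm (log2 difference 3.25 ± 0.35 SE, adjusted p = 1.16e-06), without overlap. GASA3 was 2.32-fold higher in endosperm (log2 difference 1.22 ± 0.26 SE, adjusted p = 0.0015), so the GASA family had members on both sides.

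Among 6 auxin genes, AUX22 and TIR1C were higher in endothelium and LAX11 in endosperm (median -0.40). TIR1C, an auxin receptor of the F-box type, read 1293 and 1397 in endosperm and 2802 and 3929.6 in endothelium, a 2.47-fold difference (log2 difference -1.3 ± 0.30 SE, adjusted p = 0.00277). LAX11, an auxin influx carrier, gave 12824 and 14627 on the endosperm arrays against 3158 and 2747 on the endothelium arrays. It was strong in both tissues and 4.65-fold higher in endosperm (log2 difference 2.22 ± 0.36 SE, adjusted p = 0.000119). Of the cytokinin and abscisic acid genes, CKX3, an oxidase that breaks down cytokinins, read 54.2 and 73.3 in endosperm and 436 and 492 in endothelium and was 7.35-fold higher in endothelium (log2 difference -2.88 ± 0.41 SE, adjusted p = 3.07e-05). SNRK1 and IPT did not pass.

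Ethylene genes, which here include the AP2/ERF factors named ERF and DREB, passed in 11 of 16, with 8 higher in endothelium and 3 in endosperm (median -1.03). DREB3 read 1342 and 1613 in endosperm and 5864 and 8233 in endothelium and was 4.72-fold higher in endothelium (log2 difference -2.24 ± 0.25 SE, adjusted p = 1.57e-06). DREB1 was at the floor or just above it in endosperm and 14.9-fold higher in endothelium (log2 difference -3.90 ± 0.60 SE, adjusted p = 7.42e-05). EREB gave 25828 and 22766 on the endosperm arrays against 5351 and 8393 on the endothelium arrays, without overlap, and was 3.62-fold higher in endosperm (log2 difference 1.86 ± 0.27 SE, adjusted p = 4.02e-05). EIN4, an ethylene receptor, was 2.06-fold higher in endosperm (log2 difference 1.04 ± 0.34 SE, adjusted p = 0.0317), but missed the threshold when any of the 4 arrays was left out (adjusted p 0.0644 to 0.186). A gene that shares the name ERF5 (symbol LOC100795557) was 2.55-fold higher in endothelium (log2 difference -1.35 ± 0.28 SE, adjusted p = 0.00127), opposite to the ERF5 given above. It missed the threshold with the mean of its probe sets (1.74-fold, adjusted p = 0.11) and with the variance of the 4 arrays alone (0.053). Without suffix probe sets 1 member was called higher in endosperm.

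Transport genes are of interest at this boundary, since the seed coat delivers sugar and water to the filial tissues. Of 23 aquaporins 8 were higher in endothelium and 2 in endosperm (median -0.05), and 13 did not pass. The members that passed toward endothelium were of the PIP family of the plasma membrane, apart from SPCP1. PIP2-6 was strong in both tissues, at 4743 and 6025 in endosperm and 60487 and 66878 in endothelium. It was 11.9-fold higher in endothelium (log2 difference -3.57 ± 0.35 SE, adjusted p = 4.62e-07), and 4 more of its probe sets were called the same way. Such agreement was not general. Of all 659 called genes with more than 1 tested probe set, another was called the same way for 298. PIP2-9 read 405 and 646 in endosperm and 6476 and 5331 in endothelium, an 11.5-fold difference (log2 difference -3.52 ± 0.25 SE, adjusted p = 7.43e-09). PIP2-4 was 24.7-fold higher (log2 difference -4.63 ± 0.60 SE, adjusted p = 1.1e-05), and PIP2-8 34.1-fold higher (log2 difference -5.09 ± 0.56 SE, adjusted p = 1.72e-06), or 55.5-fold and 20.9-fold without endosperm array 1 and array 2. PIP2-10 went the other way, at 1628 and 1554 in endosperm and 95.3 and 142 in endothelium, with endothelium near background and a 13.7-fold difference (log2 difference 3.77 ± 0.51 SE, adjusted p = 1.86e-05). PIP1-4 was at least 4.45-fold higher in endosperm (log2 difference 2.16 ± 0.64 SE, adjusted p = 0.0185) and missed the threshold when any of the 4 arrays was left out (adjusted p 0.0553 to 0.121).

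Of 13 genes of sugar transport and sucrose use, 3 were higher in endothelium and 2 in endosperm (median -0.18), shares near those of all named genes. SWEET24, a sugar exporter of the SWEET family, read 353 and 887 in endosperm and 27459 and 12532 in endothelium. Endosperm array 2 was above array 1, and the difference was 33.2-fold (log2 difference -5.05 ± 0.43 SE, adjusted p = 6.71e-08), or 20.9-fold and 52.5-fold without endosperm array 1 and array 2. SWEET13 had both endosperm arrays under 50, against signals of 1302 and 1209.5 in endothelium, and was at least 25.1-fold higher there (log2 difference -4.65 ± 0.57 SE, adjusted p = 6.29e-06). The other SWEET genes tested did not pass. CIF1, an inhibitor of cell wall invertase, was 4.48-fold higher in endothelium (log2 difference -2.16 ± 0.37 SE, adjusted p = 0.000235). On the endosperm side SS, a sucrose synthase, which splits sucrose inside the cell, gave 35246 and 37189.5 on the endosperm arrays against 15333 and 15942 on the endothelium arrays. Its arrays agreed within each tissue, and it was 2.32-fold higher in endosperm (log2 difference 1.21 ± 0.17 SE, adjusted p = 3.49e-05), although with the mean of its probe sets the difference was 1.44-fold (adjusted p = 0.27). SUT1, a sucrose transporter, was 3.14-fold higher in endosperm (log2 difference 1.65 ± 0.49 SE, adjusted p = 0.0194). It missed the threshold without either endosperm array (adjusted p 0.124 and 0.0521) and without endothelium array 2 (0.155), and with the mean of its probe sets (0.0527).

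**Figure D4:**
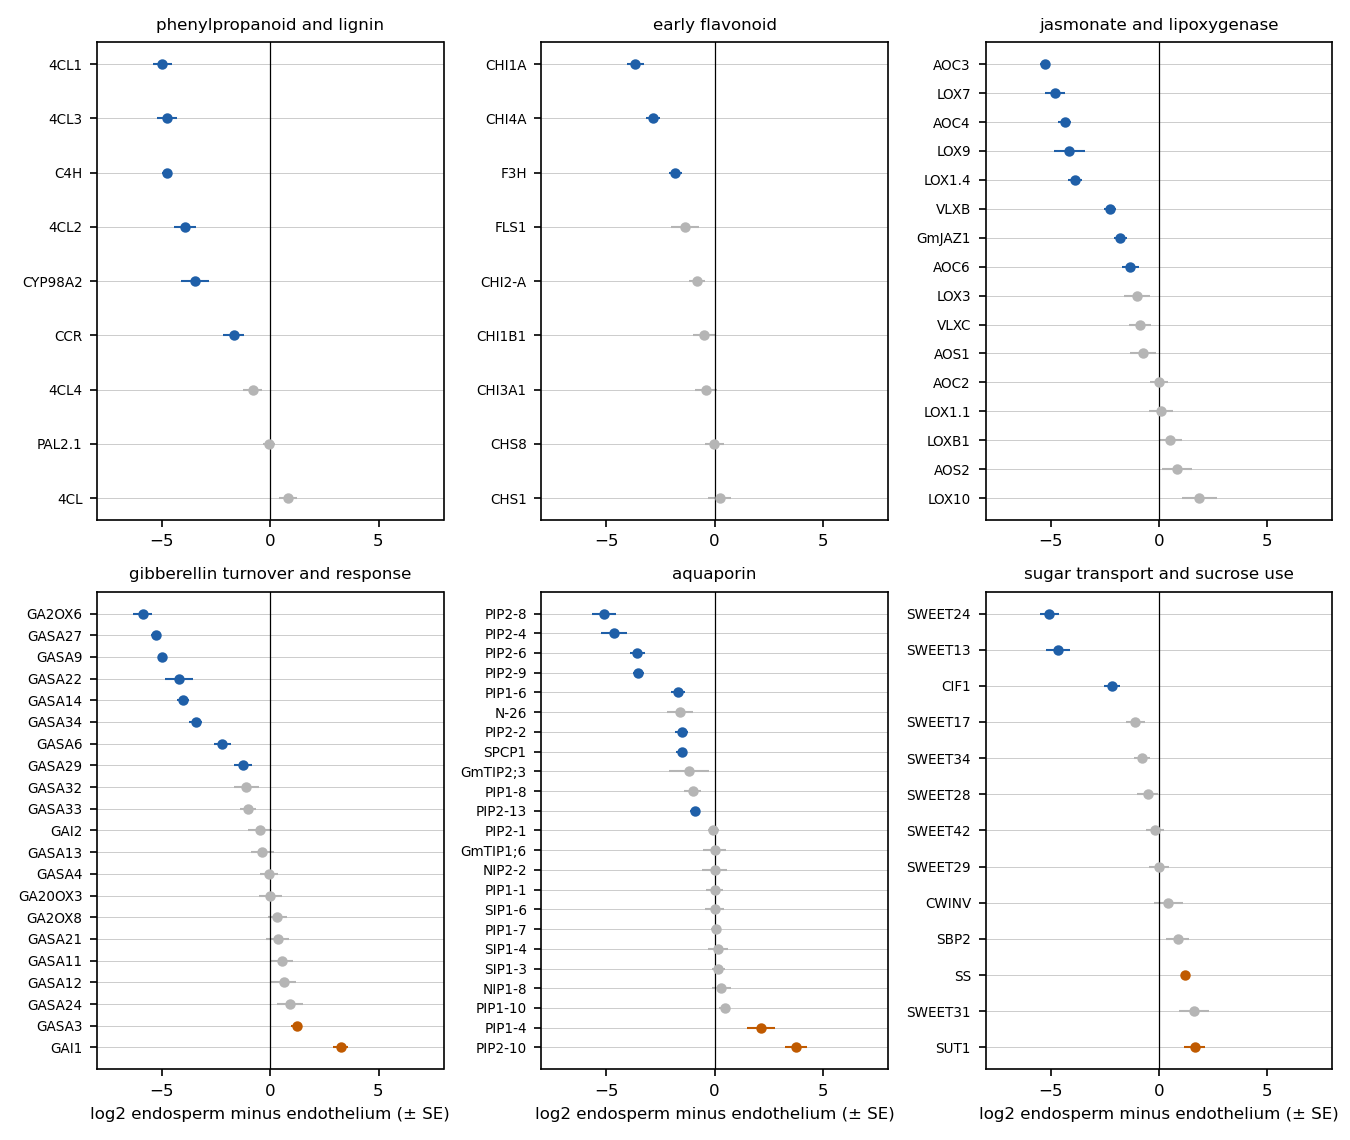
Log2 difference, endosperm minus endothelium, with its SE (horizontal bars) for every tested member of 6 gene lists, each from 2 arrays against 2. Orange points passed and were higher in endosperm, blue points passed and were higher in endothelium, and grey points did not pass. The phenylpropanoid list has 6 of 9 members in blue, the jasmonate and lipoxygenase list 8 of 16, the gibberellin list 8 of 21 with 2 in orange, and the aquaporin list 8 of 23 with 2 in orange.

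Of 8 nitrogen assimilation genes 2 were higher in each tissue (median -0.05), with genes of the same enzyme on opposite sides. Glutamate dehydrogenase links glutamate and ammonium. Its gene GDH1 read 106 and 156 in endosperm and 3688 and 2517 in endothelium, a 23.7-fold difference toward endothelium (log2 difference -4.57 ± 0.33 SE, adjusted p = 8.75e-09). GDH2 gave 6201 and 6909.8 on the endosperm arrays against 1471 and 1433 on the endothelium arrays and was 4.51-fold higher in endosperm (log2 difference 2.17 ± 0.35 SE, adjusted p = 0.000127). Glutamine synthetase, which fixes ammonium into glutamine, had GS1-GAMMA at 1023 and 1161 in endosperm and 14955 and 14571 in endothelium, 13.5-fold higher in endothelium (log2 difference -3.76 ± 0.47 SE, adjusted p = 7.76e-06). GS1alpha was under 50 on both endothelium arrays and at least 4.51-fold higher in endosperm (log2 difference 2.17 ± 0.44 SE, adjusted p = 0.0011). None of these 4 genes overlapped between the tissues.

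Cysteine synthesis had 3 of 8 members higher in endosperm and 1 lower (median 0.19). The members that passed are O-acetylserine thiol-lyases, which make cysteine from sulphide. OAS-TL3 read 5757 and 5110.4 in endosperm and 370.1 and 281 in endothelium and was 16.8-fold higher in endosperm (log2 difference 4.07 ± 0.26 SE, adjusted p = 2.16e-09). OAS-TL2 gave 2043 and 2620.4 on the endosperm arrays against 207 and 139.8 on the endothelium arrays, a 13.6-fold difference (log2 difference 3.77 ± 0.62 SE, adjusted p = 0.000166). In both, all arrays were above background and the tissues did not overlap. OAS-TL1 (symbol LOC547631) was 1.58-fold higher in endosperm (log2 difference 0.66 ± 0.21 SE, adjusted p = 0.0317) and missed the threshold without either endosperm array (adjusted p 0.085 and 0.16) and without endothelium array 1 (0.206). OAS-TL4 was 2.92-fold higher in endothelium (log2 difference -1.54 ± 0.24 SE, adjusted p = 8.24e-05).

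Fatty acid synthesis in the plastid had 4 of 10 members higher in endosperm and none lower (median 0.46). ACCB-2, of acetyl-CoA carboxylase, the enzyme of the committed step, read 9685 and 8343 in endosperm and 1475 and 1199.6 in endothelium, without overlap, and was 6.76-fold higher in endosperm (log2 difference 2.76 ± 0.31 SE, adjusted p = 2.49e-06). SACPD-C, a stearoyl-ACP desaturase that makes oleate, gave 2628 and 3564 on the endosperm arrays against 382 and 619 on the endothelium arrays and was 6.29-fold higher (log2 difference 2.65 ± 0.59 SE, adjusted p = 0.00227). ACCC-2 and ACCC-3, also of acetyl-CoA carboxylase, were 1.95-fold (log2 difference 0.97 ± 0.25 SE, adjusted p = 0.00669) and 1.63-fold higher (log2 difference 0.71 ± 0.21 SE, adjusted p = 0.0159). Without endothelium array 1 both missed the threshold and 2 members passed. ACCC-2 also missed it without endosperm array 2 (adjusted p = 0.0811), and ACCC-3 without endosperm array 1 (0.114).

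Desaturases and acyltransferases of later steps passed in both directions, with 2 of 10 in this list higher in endosperm and 3 in endothelium (median -0.03). FAD2-2, an oleate desaturase, read 32921 and 29689 in endosperm and 13381 and 12046 in endothelium and was 2.46-fold higher in endosperm (log2 difference 1.3 ± 0.17 SE, adjusted p = 1.71e-05). FAD3B, a linoleate desaturase, was 3.77-fold higher in endosperm (log2 difference 1.92 ± 0.40 SE, adjusted p = 0.00133). Both act in the endoplasmic reticulum. The plastid desaturases FAD8.2 and FAD7-2 were higher in endothelium, FAD8.2 at 443 and 484 in endosperm and 4902 and 5887 in endothelium, an 11.6-fold difference (log2 difference -3.54 ± 0.33 SE, adjusted p = 2.12e-07), and FAD7-2 by 3.23-fold (log2 difference -1.69 ± 0.37 SE, adjusted p = 0.0022). The third gene toward endothelium was DGAT3-2, and FAD2-1A and FAD2-3 were under 50 on all 4 arrays.

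Photosynthesis genes were higher in endothelium in 7 of 9 tested members, and none was called higher in endosperm (median -2.40). RCA14, a rubisco activase, read 121 and 109.6 in endosperm and 4217 and 4895 in endothelium. Endosperm was at background, and the difference was 39.5-fold (log2 difference -5.30 ± 0.27 SE, adjusted p = 1.17e-10). ELIP, an early light-induced protein of the thylakoid, gave 439.8 and 377 on the endosperm arrays against 6003 and 5702 on the endothelium arrays, a 14.4-fold difference (log2 difference -3.84 ± 0.29 SE, adjusted p = 1.74e-08). CAB3, a chlorophyll-binding protein, was 6.06-fold higher (log2 difference -2.60 ± 0.25 SE, adjusted p = 3.83e-07), but another of its probe sets was called the opposite way. RCAALPHA, a rubisco activase, read 19.5 and 444 in endosperm and 1854 and 1688 in endothelium. Its endosperm arrays differed widely, and the fold of 11.9 (log2 difference -3.57 ± 0.65 SE, adjusted p = 0.000406) became 3.99 and 35.4 without endosperm array 1 and array 2. PSAD, of photosystem I, was strong in both tissues, at 39544 and 38918 in endosperm and 27118 and 34554 in endothelium, and did not pass. Without suffix probe sets 2 members of the list passed.

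Seed maturation and late embryogenesis genes, many of which code for hydrophilic proteins that accumulate as seeds dry, were higher in endosperm in 11 of 32 tested members, with 1 lower and a median of 0.57. PM12 read 2708 and 4882 in endosperm and 28.5 and 92.0 in endothelium, a 53.6-fold difference (log2 difference 5.74 ± 0.50 SE, adjusted p = 8.3e-08). PM29 had both endothelium arrays far under 50, against 1671 and 1439 in endosperm, and was at least 31.0-fold higher there (log2 difference 4.95 ± 0.51 SE, adjusted p = 7.16e-07). PM34 was 10.6-fold higher (log2 difference 3.40 ± 0.51 SE, adjusted p = 5.98e-05). PM40 read 3882 and 3195 in endosperm and 45.7 and 325 in endothelium and was 27.7-fold higher (log2 difference 4.79 ± 0.84 SE, adjusted p = 0.000279), or 10.9-fold and 70.4-fold without endothelium array 1 and array 2. LEA-2 was the exception, at 135 and 86.3 in endosperm and 2159 and 894 in endothelium. It was 12.9-fold higher in endothelium (log2 difference -3.68 ± 0.39 SE, adjusted p = 1.17e-06), and 8.28-fold and 20.0-fold without endothelium array 1 and array 2. Without endothelium array 2, 7 members passed toward endosperm. All 4 suspensor markers, PM9, PM32, MP2 and PM25, are also members of this list. Their summed signals are given above, and their part was not tested.

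Of 6 genes for cysteine proteases and vacuolar processing enzymes, 3 were higher in endosperm and 1 in endothelium (median 1.27). Beside CYSP2, they were VPE, a vacuolar processing enzyme, which cuts proteins in the vacuole, and CP3. VPE read 1461 and 1104 in endosperm and 87.7 and 100.3 in endothelium, a 13.5-fold difference (log2 difference 3.76 ± 0.40 SE, adjusted p = 1.2e-06). CP3, also counted with the maturation genes, was 2.4-fold higher (log2 difference 1.26 ± 0.33 SE, adjusted p = 0.00883) and missed the threshold without endothelium array 2 (adjusted p = 0.0518). VPE2 went the other way and was at least 4.53-fold higher in endothelium (log2 difference -2.18 ± 0.68 SE, adjusted p = 0.0248), with both endosperm arrays under 50. It missed the threshold without either endosperm array (adjusted p 0.104 and 0.102) and without endothelium array 1 (0.21).

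All 4 ribosomal protein genes tested were higher in endosperm (median 0.81). RPL37 gave 43101 and 42326 on the endosperm arrays against 19080.4 and 22604 on the endothelium arrays and was 2.06-fold higher (log2 difference 1.04 ± 0.18 SE, adjusted p = 0.000244), and RPL2 1.53-fold higher (log2 difference 0.62 ± 0.16 SE, adjusted p = 0.00664). RPS13 and RPS6 were 1.69-fold (log2 difference 0.76 ± 0.17 SE, adjusted p = 0.00204) and 1.81-fold higher (log2 difference 0.85 ± 0.20 SE, adjusted p = 0.00362), and both missed the threshold without endothelium array 1 (adjusted p = 0.05 and 0.0623). Of 7 genes for 14-3-3 proteins, which bind phosphorylated proteins, 5 were higher in endosperm and none lower (median 0.90). GF14B read 2892 and 2695 in endosperm and 412 and 409 in endothelium, a 6.8-fold difference (log2 difference 2.77 ± 0.34 SE, adjusted p = 6.76e-06). SGF14f read 10447 and 12559 in endosperm and 2823 and 2949 in endothelium, a 3.97-fold difference (log2 difference 1.99 ± 0.24 SE, adjusted p = 6.17e-06). SGF14n was 2.65-fold (log2 difference 1.41 ± 0.24 SE, adjusted p = 0.000249) and GF14A 1.87-fold higher (log2 difference 0.90 ± 0.18 SE, adjusted p = 0.000778), the last of which was 1.27-fold (adjusted p = 0.419) with the mean of its probe sets.

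Cell wall proteins were higher in endothelium in 6 of 11 and in endosperm in 2 (median -1.34). EXP4, an expansin, which loosens walls, read 109 and 279.7 in endosperm and 4778 and 3485 in endothelium. It was 23.4-fold higher in endothelium (log2 difference -4.55 ± 0.45 SE, adjusted p = 4.77e-07), and 14.6-fold and 37.6-fold without endosperm array 1 and array 2. PRP3, a proline-rich wall protein, was 9.94-fold higher (log2 difference -3.31 ± 0.37 SE, adjusted p = 1.7e-06). SCB1, a seed coat protein, gave 3556 and 3323 on the endosperm arrays against 43584 and 59143 on the endothelium arrays, a 14.8-fold difference (log2 difference -3.88 ± 1.01 SE, adjusted p = 0.00797), and missed the threshold without endosperm array 1 (adjusted p = 0.0501), endosperm array 2 (0.0538) or endothelium array 2 (0.0632). PRP1 was 5.15-fold higher (log2 difference -2.36 ± 0.76 SE, adjusted p = 0.0284). It missed the threshold without endosperm array 1 (adjusted p = 0.0561), endosperm array 2 (0.203) or endothelium array 1 (0.281), and was 3.00-fold and 8.84-fold without endothelium array 1 and array 2. Another expansin, EXP2, stood on the endosperm side with PGIP. EXP2 read 14226 and 17608 in endosperm and 3592 and 3524 in endothelium, a 4.45-fold difference (log2 difference 2.15 ± 0.29 SE, adjusted p = 1.8e-05). Without endosperm array 2, 3 members of the list passed toward endothelium. SCB1, PRP3 and PRP1 are also among the seed coat markers whose sums are given above.

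Peroxidases oxidize phenolics in the wall, and 3 of 5 were higher in endothelium (median -1.38). PRX2 read 1219.5 and 1805 in endosperm and 35726 and 37671 in endothelium, well above background in both tissues, and was 24.7-fold higher in endothelium (log2 difference -4.63 ± 0.19 SE, adjusted p = 1.03e-11). PRX3 was 4.03-fold higher (log2 difference -2.01 ± 0.45 SE, adjusted p = 0.00271), and missed the threshold without endosperm array 1 (adjusted p = 0.0526) and with the mean of its probe sets (1.98-fold, adjusted p = 0.134). PRX2B was 2.60-fold higher (log2 difference -1.38 ± 0.48 SE, adjusted p = 0.0452) and missed the threshold without endosperm array 1 (adjusted p = 0.367) and without either endothelium array (0.131 and 0.165). Without endosperm array 1, 1 member of the list passed.

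Glutathione transferases, which conjugate glutathione to reactive or foreign compounds, had 3 of 36 members higher in endosperm and 8 in endothelium (median -0.16). The share higher in endothelium was close to that of all named genes, and the share higher in endosperm was smaller than theirs. Together with GSTU26 the endosperm side held GSTU17, at 461 and 599 in endosperm and 72.4 and 116 in endothelium, 5.74-fold higher (log2 difference 2.52 ± 0.48 SE, adjusted p = 0.000603), and GSTU41, 2.11-fold higher (log2 difference 1.08 ± 0.35 SE, adjusted p = 0.0305). GSTU41 missed the threshold when any of the 4 arrays was left out (adjusted p 0.0974 to 0.142) and with the mean of its probe sets (0.21). On the endothelium side GSTL3 read 1359 and 1362 in endosperm and 7465 and 7446 in endothelium, a 5.48-fold difference (log2 difference -2.45 ± 0.21 SE, adjusted p = 7.91e-08), which was 1.80-fold (adjusted p = 0.0682) with the mean of its probe sets. GSTU30 was 4.47-fold higher in endothelium (log2 difference -2.16 ± 0.27 SE, adjusted p = 6.74e-06). Without suffix probe sets 1 member passed toward endosperm and 5 toward endothelium.

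Transcription factors were grouped by family. MADS-box factors, which set the identity of floral organs and ovules, were lower in endosperm in 4 of 5 tested members (median -4.43). AGL1L gave 117 and 262 on the endosperm arrays against 10884 and 11792 on the endothelium arrays and was 64.7-fold higher in endothelium (log2 difference -6.01 ± 0.28 SE, adjusted p = 4.28e-11). SEP1, of the SEPALLATA type, read 76.1 and 117 in endosperm and 6033 and 3839 in endothelium, a 51.0-fold difference (log2 difference -5.67 ± 0.41 SE, adjusted p = 7.86e-09). AGL3L was 12.2-fold (log2 difference -3.61 ± 0.31 SE, adjusted p = 6.82e-08) and MADS28 21.5-fold higher (log2 difference -4.43 ± 0.43 SE, adjusted p = 3.52e-07). AP1A overlapped between the tissues and did not pass. AGL1L, SEP1 and MADS28 are also among the seed coat markers whose sums are given above.

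WRKY factors, many of which act in defence, were divided about evenly, with 10 of 45 higher in endosperm and 11 in endothelium (median -0.00). WRKY54 read 100.1 and 202 in endosperm and 4007 and 4671 in endothelium, a 30.4-fold difference toward endothelium (log2 difference -4.93 ± 0.39 SE, adjusted p = 2.95e-08). WRKY51 gave 2755 and 1686 on the endosperm arrays against 19453 and 25216 on the endothelium arrays and was 10.3-fold higher in endothelium (log2 difference -3.36 ± 0.37 SE, adjusted p = 1.62e-06). WRKY4 was 14.9-fold higher (log2 difference -3.90 ± 0.34 SE, adjusted p = 1.08e-07), but another of its probe sets was called the opposite way. With WRKY11, the endosperm side held WRKY52, at 2789.9 and 2327 in endosperm and 272 and 366 in endothelium, 8.08-fold higher (log2 difference 3.01 ± 0.61 SE, adjusted p = 0.00112). WRKY16 and WRKY33 were 6.2-fold (log2 difference 2.63 ± 0.48 SE, adjusted p = 0.000402) and 5.48-fold higher (log2 difference 2.45 ± 0.53 SE, adjusted p = 0.00177). WRKY22 was strong in both tissues and 1.97-fold higher in endosperm (log2 difference 0.98 ± 0.19 SE, adjusted p = 0.000745), or 1.49-fold (adjusted p = 0.207) with the mean of its probe sets. WRKY34 and WRKY58 had both endothelium arrays under 50 and were at least 4.40-fold (log2 difference 2.14 ± 0.46 SE, adjusted p = 0.00183) and at least 4.44-fold higher in endosperm (log2 difference 2.15 ± 0.48 SE, adjusted p = 0.00231). WRKY15, WRKY9 and WRKY10 passed with all arrays and each missed the threshold in at least 2 of the fits that left out 1 array (adjusted p up to 0.0896, 0.0923 and 0.264).

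MYB factors were more often lower than higher in endosperm, with 14 of 58 lower and 4 higher (median -0.32), where the share lower is close to that of all named genes. MYB56 was under 50 on both endosperm arrays and at least 21.4-fold higher in endothelium (log2 difference -4.42 ± 0.50 SE, adjusted p = 2.46e-06). MYB134 read 115 and 395 in endosperm and 2967 and 2559 in endothelium, a 12.9-fold difference (log2 difference -3.69 ± 0.43 SE, adjusted p = 2.92e-06), and 6.97-fold and 23.9-fold without endosperm array 1 and array 2. Beside PHANa, the members higher in endosperm were MYB50, at 4763 and 7766 in endosperm and 1277 and 929 in endothelium, 5.59-fold higher (log2 difference 2.48 ± 0.30 SE, adjusted p = 5.11e-06), MYB52, 3.13-fold higher (log2 difference 1.64 ± 0.36 SE, adjusted p = 0.00188), and MYB93, 2.09-fold higher (log2 difference 1.07 ± 0.36 SE, adjusted p = 0.0375). MYB93 missed the threshold without either endosperm array (adjusted p 0.0884 and 0.184) and without endothelium array 1 (0.222). Without suffix probe sets 2 members were called higher in endosperm.

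NAC factors had 4 of 18 members lower and 1 higher in endosperm (median -0.64), where the share lower is close to that of all named genes. NAC2 read 532 and 633 in endosperm and 6358 and 4139 in endothelium, an 8.84-fold difference toward endothelium (log2 difference -3.14 ± 0.32 SE, adjusted p = 6.16e-07). NAC34 was under 50 on both endosperm arrays and at least 32.0-fold higher in endothelium (log2 difference -5.00 ± 0.54 SE, adjusted p = 1.21e-06), and NAC6 was 6.57-fold higher there (log2 difference -2.72 ± 0.60 SE, adjusted p = 0.00232). NAC32 (symbol LOC100170751) was the member higher in endosperm, at least 7.84-fold (log2 difference 2.97 ± 0.51 SE, adjusted p = 0.000232), with both endothelium arrays under 50.

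Of 58 bZIP factors, 8 were higher in endosperm and 12 in endothelium (median -0.05), shares near those of all named genes. BZIP114 read 450.2 and 329.7 in endosperm and 5100.4 and 4443 in endothelium, and BZIP126 327 and 594 in endosperm and 5691 and 3705 in endothelium. Neither overlapped, and they were 12.4-fold (log2 difference -3.63 ± 0.32 SE, adjusted p = 1.29e-07) and 10.4-fold higher in endothelium (log2 difference -3.38 ± 0.32 SE, adjusted p = 2.19e-07). BZIP70 gave 7898 and 6284 on the endosperm arrays against 1031 and 949 on the endothelium arrays and was 7.12-fold higher in endosperm (log2 difference 2.83 ± 0.31 SE, adjusted p = 1.65e-06). The factors bZIP53A (symbol LOC780550) and BZIP53B, which share a name with the Arabidopsis seed maturation factor bZIP53, were both higher in endosperm. bZIP53A read 29955 and 24509 in endosperm and 6139 and 9880.1 in endothelium, a 3.48-fold difference (log2 difference 1.80 ± 0.33 SE, adjusted p = 0.000473), and BZIP53B was 2.44-fold higher (log2 difference 1.29 ± 0.27 SE, adjusted p = 0.00163). BZIP10 was 2.80-fold higher in endosperm (log2 difference 1.49 ± 0.28 SE, adjusted p = 0.000518). BZIP132, BZIP87, BZIP9 and BZIP95 also passed toward endosperm, and each missed the threshold in at least 1 of the fits that left out an array (adjusted p up to 0.106, 0.0914, 0.189 and 0.142).

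**Figure D5:**
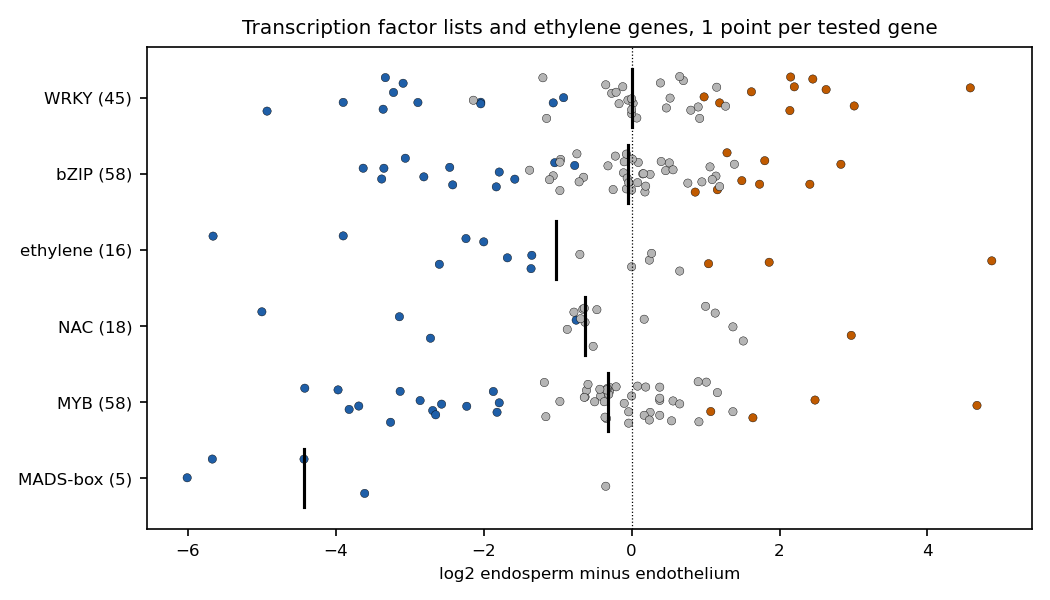
Log2 difference, endosperm minus endothelium, for each tested gene of 5 transcription factor lists and of the ethylene list (numbers tested in parentheses), 1 point a gene, with orange and blue for genes that passed higher and lower in endosperm and grey for the others. Black bars are list medians, which lie at -4.43 for the MADS-box factors, -1.03 for ethylene, -0.64 for NAC, -0.32 for MYB, -0.05 for bZIP and -0.00 for WRKY.

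Kinase lists held members on both sides. Of 8 calcium kinase and calmodulin genes 2 were higher in each tissue (median -0.28). CDPK-GAMMA, a calcium-dependent protein kinase like CDPK-BETA, read 321 and 181 in endosperm and 2361 and 1669 in endothelium and was 8.23-fold higher in endothelium (log2 difference -3.04 ± 0.49 SE, adjusted p = 0.000127), opposite to CDPK-BETA. The calmodulins SCAM-1 and SCAM-2 were opposite too. SCAM-1 was 3.13-fold higher in endothelium (log2 difference -1.65 ± 0.18 SE, adjusted p = 1.75e-06) and SCAM-2 1.66-fold higher in endosperm (log2 difference 0.73 ± 0.16 SE, adjusted p = 0.00182). Of 8 receptor-like kinases 2 were higher in each tissue (median -0.30). CLV1A, related to the meristem receptor CLAVATA1 of Arabidopsis, read 767 and 372 in endosperm and 10.4 and 53.6 in endothelium and was 10.3-fold higher in endosperm (log2 difference 3.37 ± 0.80 SE, adjusted p = 0.00415), but missed the threshold without endosperm array 1 (adjusted p = 0.0629). RLK3 and RHG4 passed in opposite directions, RLK3 1.84-fold higher in endosperm and RHG4 3.14-fold higher in endothelium, and both missed the threshold in at least 2 of the fits that left out 1 array (adjusted p up to 0.0735 and 0.206), and RHG4 also with the mean of its probe sets (1.78-fold, adjusted p = 0.14).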

How the data were processed

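The values the authors deposited give the intensity (signal) of each probe set, on a linear scale, for 18 arrays in 9 groups of 2, made with GCOS 1.3, per the submitters' processing notes. Its settings, any background step and detection calls are not given in the sources used here. The trimmed mean of each of the 4 arrays was 500.1, so a change shared by most genes cannot be seen. Of 61170 probe sets, 37593 are for soybean. Signals were set to at least 50 and taken to log2. Testing needed a signal of 100 or more on 2 or more arrays. A mean for each group was fitted in limma 3.58.1 (R 4.3.3) by lmFit, and eBayes moderated the variances along a trend. The other 7 groups served the shared variance alone. The Benjamini-Hochberg adjustment ran over 31961 probe sets, and SE is the moderated standard error. The fit was also run on simulated data with independent normal noise and no floor. That run does not test values at the floor or spread shared between arrays, and no result here rests on it.

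Genes come from GEO's platform annotation and RefSeq symbols. The probe table gave 1 symbol for 8677 soybean probe sets, several for 370, and did not list 28546, and 8652 of the 8677 were found in the RefSeq gene table. No genome coordinates were used. Named are the 15 largest differences each way among called genes without overlap of arrays, in each list of at least 3 tested genes the 4 members of smallest p and those that passed against the majority, the 5 largest probe sets each way, and markers. A few others (PAL2.1, 4CL, 4CL4, CCR, CHS1, CHS8, PSAD, AP1A, DGAT3-2, FAD2-1A, FAD2-3, SPCP1, GY1, GY5, the ERF5 of symbol LOC100795557, and members shared with markers) were chosen after their values were seen. Lists are name patterns matched to symbols and synonyms, with chance matches removed by hand. The comparison, members and lists were chosen with earlier results of these data known. Alternatives were other floors, filters, scalings, variance models, arrays left out, a replicate block, suffix probe sets left out and the mean of a gene's probe sets.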

Additional observations from a re-analysis of the deposited data

How the results depend on the processing

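Of 152 single genes tried under 16 to 18 alternatives, 134 passed with all arrays and 96 of them in every such alternative that gave a value. These alternatives do not include the replicate block in the 4 arrays alone, in which all 134 lost the call. Under the alternatives counted, a call was lost at least once in 37 genes, and in 9 one was gained. The 7606 calls were 5001 with the variance taken from these 4 arrays alone (2452 higher and 2549 lower in endosperm). Leaving out 1 array gave 5415 to 5908 calls, 2513 to 2819 higher and 2902 to 3121 lower in endosperm. A group left with a lone array took its spread from the rest. Floors, filters, scalings and the variance trend kept these counts of calls within 1.5 times, though not the counts of 16-fold differences given above. Same-numbered arrays did not deviate together (correlation 0.0302 for this pair of groups, -0.0731 to 0.0829 over 36 pairs). The labels do not say whether such arrays share seeds. This correlation cannot decide it, since technical spread could hide a shared part, and the main fit did not pair them. With the replicate block over 18 arrays 7557 probe sets passed. With the replicate block in the 4 arrays alone, 0 passed in limma, in total and in each list, though 9337 had an unadjusted p under 0.05.

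Among list counts of 3 or more, the following moved by over 1.5 times, and the cause was not tested beyond what each setting removes. Without suffix probe sets the lower counts were 1 for early flavonoid, 5 for jasmonate, 1 for desaturation, 2 for photosynthesis and 5 for glutathione transferases, and the higher counts 2 for ribosomal proteins, 1 for glutathione transferases, 2 for MYB and 1 for ethylene. With the mean of a gene's probe sets, 5 cysteine and 6 heat shock genes were higher, and with the filter at the other-organism level 5 heat shock genes. With 4 arrays only, the counts were 4 for photosynthesis, 3 for 14-3-3, 2 for ribosomal proteins, 3 for cell wall, 1 for peroxidase, 4 lower for glutathione transferases, 2 for NAC and 9 lower for MYB. Leaving out 1 array gave 2 to 4 for plastid fatty acid synthesis, 7 to 11 for maturation, 1 to 2 higher for heat shock, 2 to 4 for ribosomal proteins, 3 to 5 for cell wall and 1 to 3 for peroxidase.

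Among the 152 genes the sign turned for 5, of which BMY1 (symbol LOC547684) had passed. Its log2 difference was 0.23 with the mean of its probe sets. TUBB2 was at -0.05 after quantile normalization and IPT at 0.02 with median scaling. Leaving out 1 array gave -0.28 to 1.63 for ANR1, -0.01 to 0.72 for TUBB and -0.17 to 0.10 for IPT, with ANR1 and TUBB below 0 without endothelium array 1 and IPT above 0 without endothelium array 1 (0.10) or endosperm array 2 (0.07).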

Other observations

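Storage proteins and protease inhibitors, which fill the seed later, had signals of 577 or less on all 4 arrays. Of 14 tested, 1 passed, higher in endothelium. The Bowman-Birk inhibitor BBI-1 read 55.7 and 85.2 in endosperm and 577 and 423 in endothelium and was 7.17-fold higher in endothelium (log2 difference -2.84 ± 0.66 SE, adjusted p = 0.00334). The glycinin genes GY1 and GY5 were under 50 on all 4 arrays, and the Kunitz inhibitor KTI3 read 67.3 and 140.2 in endosperm and 16.8 and 15.2 in endothelium. Starch genes passed in 2 of 4. GBSSIa, a granule-bound starch synthase, was 2.22-fold higher in endosperm (log2 difference 1.15 ± 0.26 SE, adjusted p = 0.00291), or 1.28-fold (adjusted p = 0.442) with the mean of its probe sets. The beta-amylase BMY1 (symbol LOC547684) was 3.14-fold higher in endothelium (log2 difference -1.65 ± 0.25 SE, adjusted p = 6.95e-05), while another of its probe sets was called the opposite way. Neither starch gene passed with the mean of its probe sets. Among saponin genes 2 of 7 passed, both higher in endothelium, while 4 of the 7 had log2 differences above 0 (median 0.16). Those that passed were the gene LOC732565 given in the report and CYP72A67, a cytochrome P450, 1.94-fold higher (log2 difference -0.95 ± 0.34 SE, adjusted p = 0.0489). CYP72A67 missed the threshold in most alternatives.

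Markers of growth were mixed. H4, a histone, read 439 and 792 in endosperm and 16173 and 14723 in endothelium and was 26.2-fold higher in endothelium (log2 difference -4.71 ± 0.81 SE, adjusted p = 0.000233), from a probe set with a suffix. PCNA (symbol LOC548079), a clamp of DNA replication, was strong in both tissues, at 17395 and 15583 in endosperm and 21075 and 22787 in endothelium, and did not pass (log2 difference -0.41 ± 0.19 SE, adjusted p = 0.13). CDC48 was 1.96-fold higher in endosperm (log2 difference 0.97 ± 0.17 SE, adjusted p = 0.000365). None of the 3 tubulin genes passed. Heat shock genes had 3 of 17 members higher in each tissue (median 0.03). The factors HSF-01 and HSF-03 were 5.10-fold (log2 difference -2.35 ± 0.35 SE, adjusted p = 5.5e-05) and 3.14-fold higher in endothelium (log2 difference -1.65 ± 0.34 SE, adjusted p = 0.00132), as was the small heat shock protein HSP17.5-E, 3.57-fold (log2 difference -1.84 ± 0.38 SE, adjusted p = 0.00142). HSF-26 was 2.58-fold higher in endosperm (log2 difference 1.37 ± 0.29 SE, adjusted p = 0.00145). Without either endosperm array 1 member passed toward endosperm.

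Of 659 called genes with more than 1 tested probe set, another probe set was called the same way for 298 and the opposite way for 16, CAB3, WRKY4 and BMY1 among them. The cause was not tested.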
